A study of Mus musculus with 12 samples.

Results

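The genes described here are Setd2, the gene disrupted in this study, and 9 further genes whose products write or erase methyl groups on lysine 36 of histone H3 (H3K36). The writers were Setd2, Nsd1, Whsc1 (also named Nsd2), Whsc1l1 (also named Nsd3), Ash1l and Setd5, and the erasers were Kdm2a, Kdm2b, Kdm4a and Kdm4c. They were chosen by name, and the entry whose gene name held the symbol was taken from each library's table. All 10 were found, each under 1 entry of its own, among the 24553 entries. The study measured polyadenylated RNA in 12 mouse liver libraries that fell into 4 groups of 3. WT liver was normal liver of 8-month-old male mice carrying wild-type Setd2, without carcinogen. KO liver was the same tissue, age and sex from mice labelled Setd2 knockout, also without carcinogen. WT tumor and KO tumor were liver tumors of 8-month mice of those genotypes that had received 1 intraperitoneal dose of 25 mg/kg diethylnitrosamine (DEN), a liver carcinogen, as males 2 weeks old. Sample titles read cKO, and it is not stated which exons were removed, by which driver or in which cells. Because no label says that the 12 libraries are from 12 different mice, p-values cover only the spread among the libraries at hand, which may be technical.

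H3K36 carries 1, 2 or 3 methyl groups, laid down by different enzymes. SETD2 travels with elongating RNA polymerase II and is the main source of the trimethyl mark over transcribed gene bodies, where the mark guides DNA methylation, splicing and the choice of transcription start. NSD1, WHSC1, WHSC1L1 and ASH1L place the lower methylation states, KDM2A and KDM2B remove them, and KDM4A and KDM4C remove the trimethyl mark of H3K36 as well as that of another lysine of the same tail. Loss of SETD2 is a recurrent lesion of several human cancers, liver cancer among them.

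Levels are FPKM, fragments per kilobase of transcript after scaling to all mapped fragments, which allows levels of different genes to be compared. Changes are differences of log2(FPKM + 1), given ± the standard error, and understate the ratio for genes of low FPKM such as Kdm2b and Kdm4c. They were read from a limma fit of all 11671 entries (called genes from here on) that reached 1 FPKM in at least 3 libraries. All 10 genes passed that filter. A gene was called at a Benjamini-Hochberg adjusted p below 0.05 over all those genes. The summed FPKM of a library ran from 641848 to 719538 in normal liver and from 423498 to 626303 in tumors, between 10233 and 11620 entries reached 1 FPKM, and the number of reads behind these values is unknown. Hepatocyte markers (12 genes, among them Apoa1 and Ttr) summed to at least 20300 FPKM in every library, and no marker of the cell types examined was at 0 throughout a group. The hepatocyte marker Ahsg, with group means from 4850 to 8070 FPKM, was at 0 in 1 library, whose sum lacks it. In bulk tissue, fewer cells of a type and less RNA per cell cannot be told apart.

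Setd2 was lower in both knockout groups and was not absent from either. The WT liver libraries held 4.84, 3.84 and 4.70 FPKM of Setd2, and the KO liver libraries held 1.66, 1.93 and 1.32. The WT tumors held 4.40, 3.61 and 4.07, and the KO tumors held 3.14, 2.18 and 1.90. Every KO library was below every WT library of its tissue, and also below every WT library of the other tissue. The KO mean was 36.7% of the WT mean in normal liver (1.64 ± 0.304 against 4.46 ± 0.54 FPKM, SD, n = 3) and 59.8% in tumor (2.41 ± 0.648 against 4.02 ± 0.399). In normal liver the change was -1.05 ± 0.14 on the log2 scale (adjusted p = 0.0108, limma), which placed Setd2 at rank 137 of all tested genes by p. In tumor it was -0.57 ± 0.19 and did not pass the test (adjusted p = 0.188, limma). The tumor value passed in a single fit of all 12 libraries, which shares 1 estimate of the spread among the 4 groups (adjusted p = 0.0493) and called 1017 of all tested genes against 9. The 2 KO groups overlapped, since KO tumor replicate 3 lay below KO liver replicate 2, and KO tumor replicate 1 was the highest of the 6 knockout libraries. A single FPKM per gene adds up all exons, so transcripts that lack a deleted part and cells that keep the intact gene cannot be told apart.

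**Figure D1:**
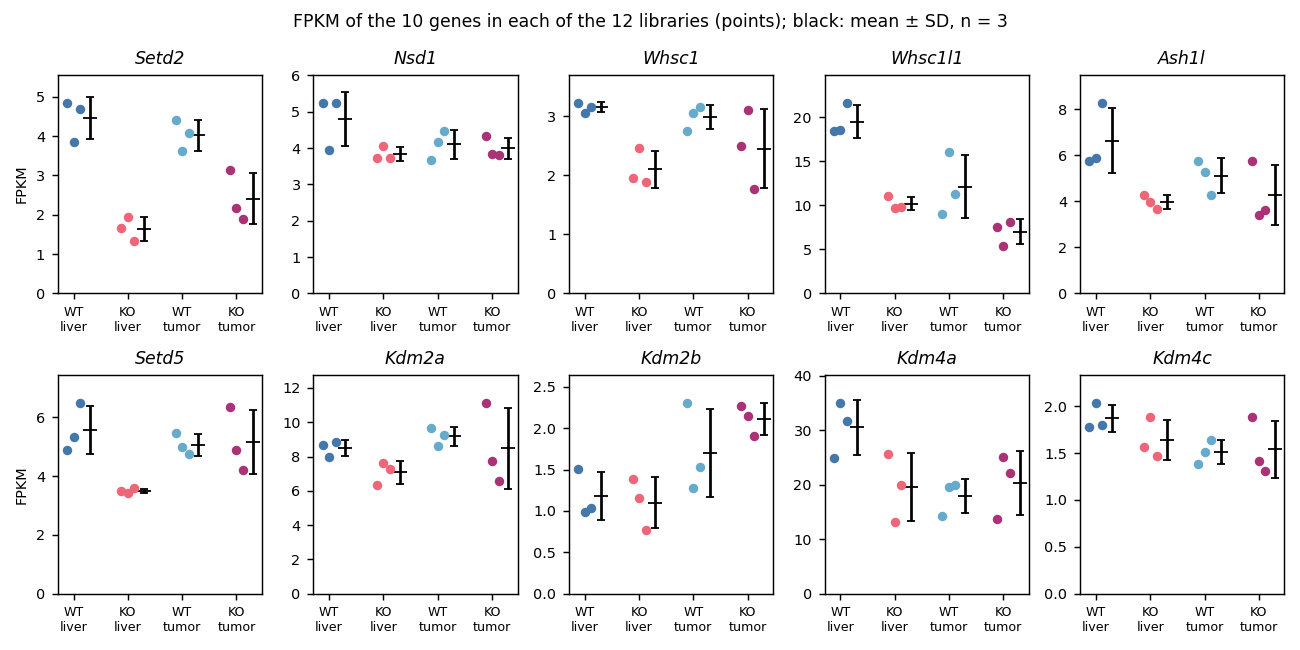
FPKM of each gene in the 12 libraries (points, 3 per group), with the mean and SD of each group in black and a vertical axis that starts at 0 in every panel. Setd2 and Whsc1l1 are the panels in which both KO groups lie wholly below the WT group of the same tissue.

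The 3 called genes with a promoter entry in the RefSeq table (build GRCm38.p6) were Setd2, Setd5 and Kdm4a. The 250 bases before the start sites given in that table are shown. Capitals mark matches, on either strand, to GGGCGG, a box bound by SP1 and KLF factors, or to the CCAAT box. A motif on the other strand appears as its reverse complement.
Setd2, chr9:110532347-110532596, + strand: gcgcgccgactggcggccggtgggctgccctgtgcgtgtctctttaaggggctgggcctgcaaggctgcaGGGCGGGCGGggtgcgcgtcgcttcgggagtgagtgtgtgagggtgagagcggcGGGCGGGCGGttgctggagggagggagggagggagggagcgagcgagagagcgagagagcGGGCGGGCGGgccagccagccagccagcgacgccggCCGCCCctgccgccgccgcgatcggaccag
Setd5, chr6:113104685-113104934, + strand: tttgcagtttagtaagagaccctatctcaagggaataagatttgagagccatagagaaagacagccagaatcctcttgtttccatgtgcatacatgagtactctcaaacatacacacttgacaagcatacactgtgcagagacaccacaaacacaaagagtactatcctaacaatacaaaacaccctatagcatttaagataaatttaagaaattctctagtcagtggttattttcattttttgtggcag
Kdm4a, chr4:118180044-118180293, - strand: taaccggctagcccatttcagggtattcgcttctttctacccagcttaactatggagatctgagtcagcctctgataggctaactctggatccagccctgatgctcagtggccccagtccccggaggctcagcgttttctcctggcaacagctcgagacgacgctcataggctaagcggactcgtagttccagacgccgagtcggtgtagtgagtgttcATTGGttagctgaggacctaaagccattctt
The Setd2 stretch was 76.0% G or C, held 31 CpG pairs, more than 94.8% of the 32817 promoters in the table, and matched GGGCGG 7 times, with neighbouring matches sharing bases. Of all promoters, 32.7% held GGGCGG. The Kdm4a stretch was 53.6% G or C with 12 CpG pairs and 1 CCAAT match, a motif found in 33.8% of promoters. The Setd5 stretch was 36.8% G or C with 0 CpG pairs and no match, and its start lies inside the gene as GENCODE annotates it (chr6:113077365-113153435). Whether transcription starts there was not tested, so the Setd5 stretch may not be a promoter. The median promoter had 52.4% G or C and 6 CpG pairs. A match describes the letters only, and Kdm2b and Kdm4c also had entries.

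In normal liver 4 of the 6 writers, Setd2 included, were called lower in the knockout (Whsc1l1, Ash1l, Setd5 and Setd2), and Nsd1 and Whsc1 did not pass the test. Among all tested genes 8.77% were called lower and 18.1% were called in either direction. Whsc1l1, which carries the reader domains of the NSD family and also exists as a short form without the catalytic domain, had 18.4, 18.5 and 21.6 FPKM in WT liver and 11.0, 9.69 and 9.85 in KO liver. These groups were far apart, with the KO mean at 52.1% of the WT mean. The change was -0.88 ± 0.12 (adjusted p = 0.0111, limma). Setd2 and Whsc1l1 kept their calls when each of the 6 libraries was left out in turn, with changes from -1.14 to -0.96 and from -0.93 to -0.80.

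Ash1l, a Trithorax-group enzyme of H3K36 dimethylation, had 5.75, 5.88 and 8.26 FPKM in WT liver and 4.29, 3.97 and 3.66 in KO liver. WT replicate 3 stood well above the other WT libraries, and the groups did not overlap. Ash1l fell by 0.60 ± 0.16 (adjusted p = 0.0426, limma). Setd5, a SET domain protein on whose own activity toward H3K36 reports differ, had 4.90, 5.34 and 6.47 FPKM in WT liver and 3.50, 3.44 and 3.58 in KO liver. The KO libraries were almost equal and all below WT. Setd5 fell by 0.54 ± 0.13 (adjusted p = 0.0364, limma). Both calls were lost whichever of the 6 libraries was left out, with adjusted p from 0.0598 to 0.111 for Ash1l and from 0.0503 to 0.106 for Setd5.

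Whsc1, an NSD family enzyme of H3K36 dimethylation, had 3.22, 3.06 and 3.16 FPKM in WT liver and 1.95, 2.46 and 1.89 in KO liver. The groups did not overlap, but its change of -0.43 ± 0.12 just missed the threshold (adjusted p = 0.0516, limma). Nsd1, the family member disrupted in Sotos syndrome, had 5.24, 3.96 and 5.24 FPKM in WT liver and 3.73, 4.05 and 3.72 in KO liver. WT replicate 2 lay among the KO values, and the change of -0.26 ± 0.14 did not pass (adjusted p = 0.212, limma). Summed over the 6 writers, FPKM was 44.2 ± 4.71 in WT liver and 25.2 ± 1.08 in KO liver (SD, n = 3), and Whsc1l1 was the largest single term in each.

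None of the 4 erasers was called between the genotypes in normal liver. Kdm4a, a demethylase of the trimethyl mark, had 24.9, 34.9 and 31.6 FPKM in WT liver and 25.6, 13.2 and 20.0 in KO liver. KO replicate 1 lay inside the WT range, and the change was -0.64 ± 0.24 (adjusted p = 0.0996, limma). Without KO liver replicate 1 it was called (-0.85, adjusted p = 0.0471). Kdm2a, which binds unmethylated CpG islands through a CXXC zinc finger, had 8.65, 7.97 and 8.83 FPKM in WT liver and 6.35, 7.63 and 7.27 in KO liver. Its groups were close but did not overlap, with a change of -0.23 ± 0.12 (adjusted p = 0.202, limma). Kdm4c, a relative of Kdm4a, had 1.78, 2.03 and 1.80 FPKM in WT liver and 1.57, 1.88 and 1.47 in KO liver, with overlapping groups and a change of -0.12 (adjusted p = 0.459). Kdm2b, a subunit of a variant Polycomb complex, had 1.51, 0.985 and 1.03 FPKM in WT liver and 1.38, 1.16 and 0.767 in KO liver, with overlapping groups and a change of -0.05 (adjusted p = 0.828).

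Over the 10 genes, groups did not overlap in normal liver for 6, all of them lower in KO (Setd2, Whsc1, Whsc1l1, Ash1l, Setd5 and Kdm2a), against 20.7% of all tested genes. All 10 changes were below 0, as were 46.7% of those of all tested genes, and Kdm2b's turned above 0 without WT liver replicate 1 (0.057) or KO liver replicate 3 (0.069). The share of 46.7% was not matched for transcript length, with which changes varied, as described below. The median change of the 10 was -0.48, and that of the 9 other than Setd2 was -0.43, against 0.03 over all tested genes. Stellate cell and fibroblast markers moved with these groups: 2 of the 11 were called higher and 0 lower, and their summed FPKM was 55.9 to 86.5 in WT liver and 92.2 to 155.0 in KO liver. Among all tested genes, 1089 of 11671 were called higher. Most of the stellate cell and fibroblast sum was Dcn, with means of 41.4 in WT liver and 84.3 in KO liver, and 1 of the 11 changes was below 0. Hepatocyte markers overlapped (39700 to 48600 against 33400 to 42700), with 2 of 12 called higher and 2 lower. The part of these marker differences in the results above was not tested.

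**Figure D2:**
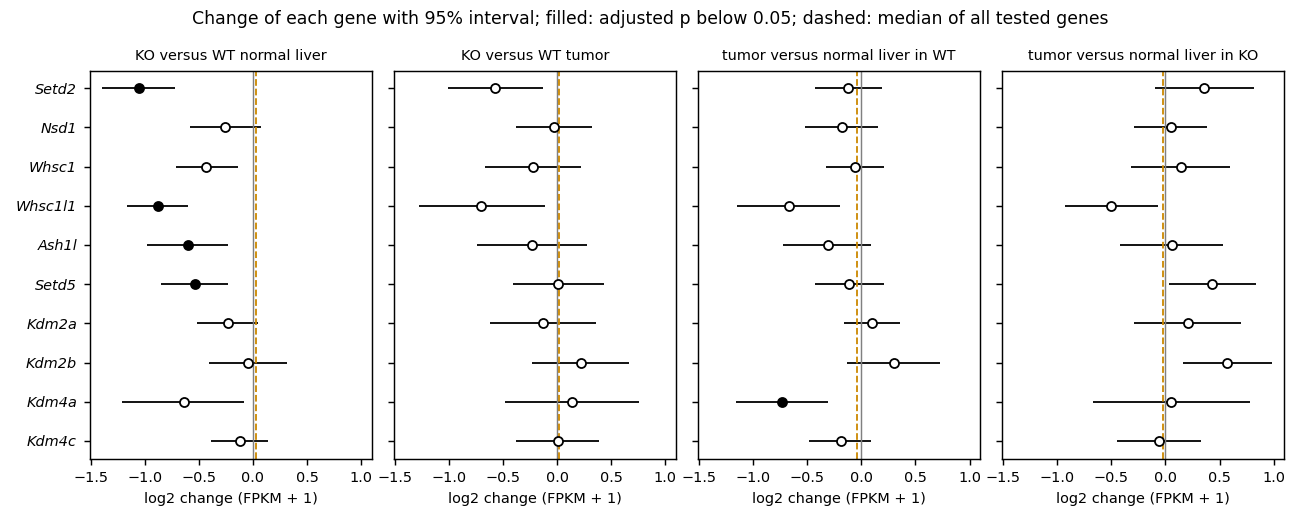
Change of each gene on the log2(FPKM + 1) scale in 4 comparisons, with its 95% interval from limma. Filled circles passed the test, the dashed line is the median of all tested genes, and all 10 circles lie left of 0 only in KO versus WT normal liver.

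Setd2 differed between the genotypes by more than the mean of the other 9 genes did, a comparison given here without a test. Among the 9, Whsc1l1 fell by more than Setd2 in tumor (-0.70 against -0.57) and by less in normal liver (-0.88 against -1.05). Within each library, log2(FPKM + 1) of Setd2 was set against the mean of the 9 others. That mean was 2.83 ± 0.07 in WT liver and 2.40 ± 0.06 in KO liver (SD, n = 3), with 2.62 ± 0.04 in WT tumor and 2.51 ± 0.11 in KO tumor. Setd2 lay below it by a difference of -0.24, -0.50 and -0.39 in the WT liver libraries and of -1.05, -0.85 and -1.14 in the KO liver libraries. The WT tumors had differences of -0.15, -0.45 and -0.28, and the KO tumors had -0.58, -0.82 and -0.88. All 6 KO libraries were below all 6 WT libraries on this scale. Of the summed FPKM of the 6 writers, Setd2 made up 10.1% in WT liver, 6.47% in KO liver, 12.2% in WT tumor and 9.43% in KO tumor (group means).

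**Figure D3:**
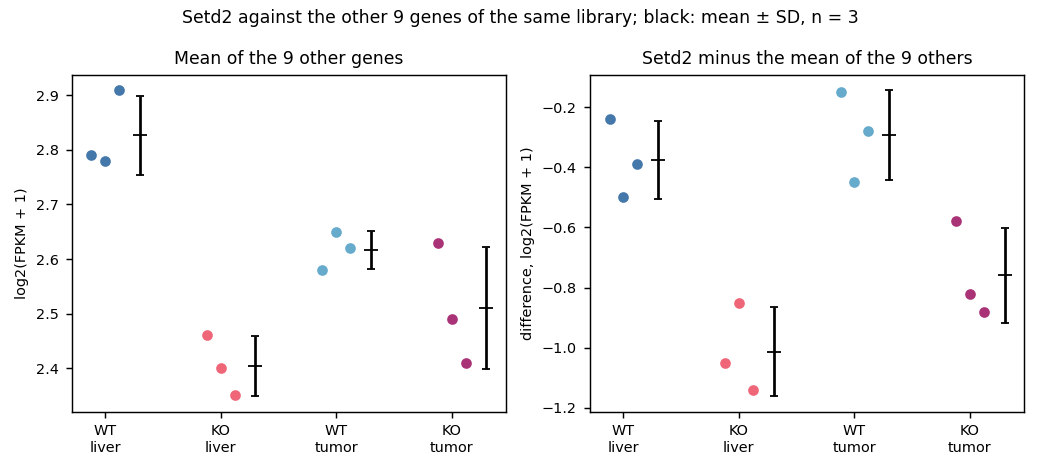
Left, mean log2(FPKM + 1) of the 9 genes other than Setd2 in each library; right, Setd2 minus that mean; black marks are the group mean and SD (n = 3), and neither axis starts at 0. The mean of the 9 others is lowest in KO liver, where it overlaps KO tumor, and Setd2 is below it by more in all KO libraries than in any WT library.

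The 10 genes have long transcripts, and changes between the genotypes in normal liver varied with length across all genes. The longest GENCODE transcript was 12784 bases for Nsd1, 11644 for Ash1l, 10105 for Whsc1l1, 8578 for Kdm2a, 8350 for Setd2, 7786 for Whsc1, 6755 for Setd5, 5180 for Kdm2b, 4663 for Kdm4a and 4196 for Kdm4c, against a median of 3235.5 over the tested genes that could be placed. With those genes in 5 equal bins by length, all but Kdm4a and Kdm4c of the 10 were in the longest bin. From the shortest to the longest bin, the median change in KO versus WT normal liver was 0.25, 0.10, 0.01, -0.06 and -0.16. With this trend removed, Setd2 (-0.84, adjusted p = 0.0161) and Whsc1l1 (-0.66, adjusted p = 0.0177) were still called by limma, and Ash1l (-0.38, adjusted p = 0.101) and Setd5 (-0.36, adjusted p = 0.0881) were not. Whsc1 then lay at -0.22, Nsd1 at -0.034, Kdm2a at -0.022 and Kdm2b at 0.07, and none of these was called. Between the tumors the bins' medians ran only from 0.04 to -0.02.

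**Figure D4:**
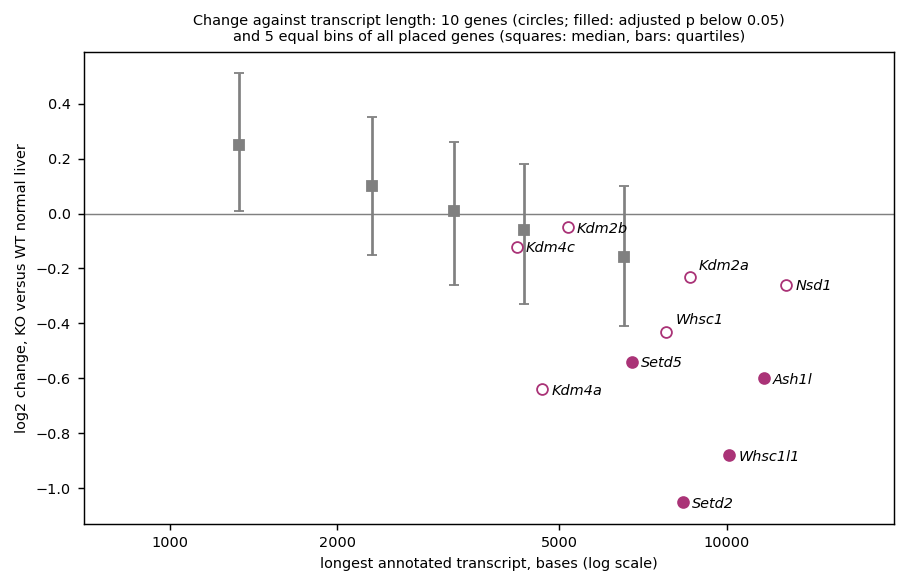
Longest annotated transcript in bases (log scale) against the log2 change in KO versus WT normal liver. Circles are the 10 genes, filled where called, and squares with bars are the medians and quartiles of 5 equal bins of all placed genes, which fall from 0.25 to -0.16.

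The other features of the loci were diverse. Setd2 lies at chr9:110532597-110618633 on the + strand, with 0 annotated genes on the other strand, and Whsc1l1 at chr8:25601601-25719667 (+), with 1, the small RNA gene Gm23184. Ash1l (chr3:88950622-89079375, +) overlaps 3 genes on the other strand, Dap3 among them, Whsc1 (chr5:33820725-33897975, +) overlaps Nelfa, and Kdm2b (chr5:122870665-122989823, -) overlaps Rnf34 and A930024E05Rik. Libraries did not keep the strand, so reads from shared stretches cannot be told apart there. Nsd1 is at chr13:55209782-55318325 (+), Setd5 at the position given above, Kdm2a at chr19:4314419-4398285 (-), Kdm4a at chr4:118136957-118180043 (-) and Kdm4c at chr4:74242497-74405860 (+), all on GRCm38. On the other strand Nsd1 overlaps Gm47816, Kdm4a overlaps Gm23382 and Kdm4c overlaps A230083N12Rik, with the same limit. Setd5 and Kdm2a have 0 annotated genes there.

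Between KO and WT tumors none of the 10 genes passed the test. Of the 10, 0 were called, as were 0.0771% of all tested genes (9 genes), and at an unadjusted p below 0.05 there were 2, Setd2 and Whsc1l1, against 17.6% of all genes. Whsc1l1 had 9.02, 16.1 and 11.3 FPKM in WT tumor and 7.53, 5.40 and 8.06 in KO tumor. The WT libraries were widely spread, and the KO libraries were all below them, at 57.6% of the WT mean. The change was -0.70 ± 0.25 (adjusted p = 0.215, limma). Setd2 and Whsc1l1 were the 2 genes whose groups did not overlap, both lower in KO, against 10.1% of all tested genes.

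The other 8 had overlapping groups, with adjusted p from 0.584 to 0.989 (limma). Ash1l had 5.75, 5.29 and 4.27 FPKM in WT tumor and 5.75, 3.39 and 3.63 in KO tumor. Setd5 had 5.46, 4.99 and 4.74 in WT tumor and 6.34, 4.89 and 4.22 in KO tumor, and its change was 0.01 with a 95% interval from -0.41 to 0.43. Whsc1 had 2.75, 3.05 and 3.15 in WT tumor and 2.49, 3.10 and 1.77 in KO tumor. In Ash1l, Setd5 and Kdm2a, KO tumor replicate 1 was at or above the highest WT tumor library and the other 2 KO tumors lay below it. Kdm2a had 9.68, 8.60 and 9.27 FPKM in WT tumor and 11.1, 7.76 and 6.58 in KO tumor. Nsd1 had 3.67, 4.16 and 4.46 in WT tumor and 4.33, 3.84 and 3.82 in KO tumor, with an interval of the change from -0.38 to 0.32. Kdm4c had 1.38, 1.51 and 1.64 in WT tumor and 1.88, 1.42 and 1.31 in KO tumor, where replicate 1 again was the highest. The writers' changes had a median of -0.23 and the erasers' one of 0.08, against 0.02 over all tested genes.

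Cell type markers differed between these tumor groups, although none of the markers was called. Hepatocyte markers summed to 45700 to 58100 FPKM in WT tumor and 20300 to 38600 in KO tumor. Macrophage and Kupffer cell markers (11 genes) summed to 150.0 to 469.0 and 521.0 to 734.0, and stellate cell and fibroblast markers to 84.7 to 99.5 and 202.0 to 295.0. Neutrophil markers (6 genes) were at 9.13 to 10.5 and 23.0 to 62.7, and B and plasma cell markers (5 genes found) at 22.9 to 56.7 and 6.37 to 18.8. Changes were below 0 in 9 of the 12 hepatocyte, 2 of the 11 macrophage and 1 of the 11 stellate cell and fibroblast markers. They were below 0 in 0 of 4 tested neutrophil and 2 of 3 tested B and plasma cell markers. Most of the B and plasma cell sum was Jchain, with means of 34.9 in WT tumor and 9.64 in KO tumor. The part of these differences in the tumor values of Setd2 and Whsc1l1 was not tested.

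Between WT tumor and WT normal liver, Setd2 did not pass the test, and Kdm4a was the single gene of the 10 that was called. Setd2 changed by -0.12 (95% interval -0.43 to 0.19, adjusted p = 0.557, limma), with overlapping groups. Kdm4a had 24.9, 34.9 and 31.6 FPKM in WT liver and 14.3, 19.6 and 20.0 in WT tumor. All tumor libraries were below all liver libraries, at 58.9% of the liver mean. The change was -0.73 ± 0.18 (adjusted p = 0.0350, limma), and 8.96% of all tested genes were called lower in this comparison. The call was lost without WT liver replicate 2 (-0.63, adjusted p = 0.105), WT liver replicate 3 (-0.70, 0.119), WT tumor replicate 2 (-0.80, 0.066) or WT tumor replicate 3 (-0.82, 0.0541), and, with all libraries, when each was rescaled to a common sum (-0.45, 0.0615), with no filter on low FPKM (adjusted p = 0.0837), with quantile normalization (-0.64, 0.0502) and in the single fit of 12 libraries (0.102).

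Whsc1l1 was also lower in every WT tumor than in every WT liver, at 62.2% of the liver mean, with a change of -0.67 ± 0.20 that missed the threshold (adjusted p = 0.0605, limma) and passed it without WT tumor replicate 2 (-0.88, adjusted p = 0.0303). Ash1l (-0.31, adjusted p = 0.23) and Kdm4c (1.78, 2.03 and 1.80 against 1.38, 1.51 and 1.64 FPKM, -0.19, adjusted p = 0.292) were the other 2 of 4 genes whose groups did not overlap, all 4 lower in tumor, against 23.8% of all tested genes. For Ash1l the gap was within rounding, since the lowest WT liver and the highest WT tumor library were both at 5.75 FPKM. Kdm2b was at 2.30, 1.28 and 1.53 FPKM in WT tumor, with a mean of 145.0% of that in liver and overlapping groups (0.30, adjusted p = 0.272). Proliferation genes (12, among them Mki67) summed to 3.04 to 4.7 FPKM in WT liver and 27.1 to 43.6 in WT tumor, and of the hepatocyte markers 1 was called higher and 3 lower. B and plasma cell markers summed to 1.05 to 3.22 FPKM in WT liver and 22.9 to 56.7 in WT tumor, with 2 of 3 tested called higher. Most of that sum was Jchain, with means of 1.71 in WT liver and 34.9 in WT tumor. Among all tested genes, 935 of 11671 were called higher. Of the 11 stellate cell and fibroblast markers 3 were called higher, and 4 had changes below 0. The part of all these markers in these values was not tested.

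Between KO tumor and KO liver 0 of the 10 genes were called, against 14.3% of all tested genes, and Kdm2b and Setd5 were higher in every tumor library. At an unadjusted p below 0.05 there were 3 of the 10, against 33.7% of all genes. Kdm2b had 1.38, 1.16 and 0.767 FPKM in KO liver and 2.27, 2.15 and 1.90 in KO tumor. All tumor libraries were above all liver libraries, and the mean was 191.0% of that in liver. The change was 0.57 ± 0.17 (adjusted p = 0.0666, limma), and it passed in the single fit of all 12 libraries (adjusted p = 0.0318). Setd5 was at 3.50, 3.44 and 3.58 FPKM in KO liver and 6.34, 4.89 and 4.22 in KO tumor. Its groups did not overlap either, and the change of 0.43 ± 0.17 (adjusted p = 0.128, limma) passed in the single fit (adjusted p = 0.0445). That fit called 28.6% of all tested genes in this comparison. These 2 were the genes whose KO tumor libraries were all higher, against 21.3% of all tested genes, and Whsc1l1 was the 1 whose libraries were all lower, against 19.8%, with a change of -0.50 ± 0.18 (adjusted p = 0.107, limma). Setd2 itself was at 147.0% of its KO liver mean in KO tumor, with overlapping groups and a change of 0.36 ± 0.19 (adjusted p = 0.235, limma). Kdm4a had 13.7, 25.1 and 22.2 FPKM in KO tumor, within 0.05 of KO liver on the log2 scale, with a wide 95% interval from -0.67 to 0.78. Macrophage markers (245.0 to 348.0 FPKM in KO liver and 521.0 to 734.0 in KO tumor, 5 of 11 called higher), stellate cell and fibroblast markers (5 of 11 called higher) and proliferation genes (3.7 to 5.1 and 18.2 to 134.0, 7 of 11 tested called higher) moved with these groups. Among all tested genes, 1061 of 11671 were called higher. Changes were below 0 in 4 of the 11 macrophage markers and in 4 of the 11 stellate cell and fibroblast markers. The mean of Vsig4 went from 24.1 to 17.5 FPKM, and that of C1qa from 52.4 to 145.0. Cholangiocyte markers summed to 71.4 to 78.2 FPKM in KO liver and 273.0 to 3520.0 in KO tumor, with 2 of 6 tested called higher. Most of that sum was Spp1, with means of 65.8 in KO liver and 1440.0 in KO tumor. Changes were below 0 in 2 of the 6 tested, and the mean of Krt19 went from 2.99 to 2.39. The part of these markers in the values above was not tested.

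The difference between the knockout effects in tumor and in normal liver was tested as an interaction on all 12 libraries, and none of the 10 genes was called, against 2.08% of all tested genes. At an unadjusted p below 0.05 there was 1, Setd5, against 22.3%. All 10 estimates were above 0, which means a change in tumor that was less negative than in liver, while 48.2% of those of all tested genes were below 0. They ran from 0.10 for Kdm2a to 0.79 ± 0.38 for Kdm4a (adjusted p = 0.247, limma). Setd2 had 0.48 ± 0.23 (adjusted p = 0.241, limma) and Setd5 0.55 ± 0.21 (adjusted p = 0.155, limma), and the 95% interval of Setd2 ran from -0.02 to 0.98. Whsc1l1 had 0.18, with an interval from -0.43 to 0.79. The estimates of Kdm2a without KO tumor replicate 1 (-0.088) and of Whsc1l1 without WT tumor replicate 1 (-0.00053) fell below 0. The interaction also varied with transcript length across all genes, with bin medians from -0.20 in the shortest bin to 0.16 in the longest, which holds 8 of the 10 genes. With that trend removed, Kdm2a (-0.10) and Whsc1l1 (-0.028) were below 0.

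Averaged over both tissues, the knockout effect was called for Setd2 (-0.81 ± 0.11, adjusted p = 0.00335, limma) and for Whsc1l1 (-0.79 ± 0.14, adjusted p = 0.00777, limma), both lower, against 6.27% of all tested genes called lower. Ash1l (-0.42, adjusted p = 0.0572), Whsc1 (-0.32, adjusted p = 0.0642) and Setd5 (-0.26, adjusted p = 0.103) did not pass, and the 4 erasers lay between -0.25 and 0.08. Without KO tumor replicate 1 there were 5 called genes, with Ash1l (-0.52, adjusted p = 0.0143), Setd5 (-0.33, adjusted p = 0.0294) and Kdm2a (-0.28, adjusted p = 0.045) joining the first 2. Calls among all tested genes rose there too, to 2498 from 1677, and those lower to 1103 from 732. In this average 6 of the 11 stellate cell and fibroblast markers and 3 of the 11 macrophage and Kupffer cell markers were called higher, and 3 of the 12 hepatocyte markers lower. Among all 11671 tested genes, 945 were called higher and 732 lower. Of the 11 macrophage and Kupffer cell markers 4 had changes below 0. The part of all these markers in the result was not tested.

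In WT liver an eraser and a writer stood above the rest in level. There Kdm4a was highest at 30.5 ± 5.09 FPKM (SD, n = 3), above 80.6% of tested genes, followed by Whsc1l1 at 19.5 ± 1.83, and both were apart from their neighbours in the order. Kdm2a (8.49), Ash1l (6.63), Setd5 (5.57), Nsd1 (4.81) and Setd2 (4.46) formed a middle range in which each overlapped the next. Whsc1 (3.15), Kdm4c (1.87) and Kdm2b (1.18) followed without overlap. Setd2 took place 7 in WT liver and in WT tumor, place 8 in KO tumor, where it overlapped Whsc1 and Kdm2b, and place 9 in KO liver, where it overlapped Whsc1, Kdm4c and Kdm2b. Kdm4a was highest in all 4 groups, but its libraries overlapped those of Whsc1l1 in WT tumor. Whsc1l1 (12.1 FPKM) in turn overlapped Kdm2a (9.18) in WT tumor, and in KO tumor Kdm2a (8.49) had the higher mean of the 2, with Whsc1l1 at 7.0 and overlapping libraries. By group, WT liver had the highest mean in 8 of the 10 genes, and in 6 of these, all but Whsc1l1 and Ash1l, its libraries overlapped those of the next group. The 2 exceptions were Kdm2a, highest in WT tumor, and Kdm2b, highest in KO tumor, and in neither did that group stand apart from the next. In Ash1l the gap between WT liver and WT tumor was within rounding, with 5.75 FPKM on both sides.

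The genes whose pattern over the 12 libraries lay closest to that of Setd2 were Fam208b, Mpzl3, Zfp800, Acvr2a and Chsy3. Likeness was the root mean square difference between the genes' log2(FPKM + 1), each centred on its own mean, among 10902 tested genes. It was 0.16 for Fam208b, 0.17 for Mpzl3 and Zfp800, 0.18 for Acvr2a and 0.19 for Chsy3, against the spread of Setd2 itself of 0.45 on the same measure. Fam208b, which encodes a relative of a silencing-complex subunit, had group means of 1.88, 0.616, 1.44 and 1.03 FPKM in WT liver, KO liver, WT tumor and KO tumor. Acvr2a, an activin receptor, had 2.43, 0.961, 2.35 and 1.42 in the same order, and Chsy3, a chondroitin synthase, 2.92, 0.759, 2.66 and 1.11. Of the other 9 genes, Ash1l was closest to Setd2 (0.28, place 127), followed by Whsc1 (0.30) and Setd5 (0.30), while Kdm4a was farthest (0.56). These are descriptions of the libraries that the comparisons above also used.

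Genes that act beside the 10 were examined through lists. In normal liver 14 of their 79 tested genes were called (17.7%), near the share of all tested genes (18.1%). Of the other H3K36 writers and erasers, 7 of 8 were tested and 0 were called. The median change was -0.17, and Smyd2, a methyltransferase first described for H3K36, had 12.6 ± 1.67 FPKM in WT liver and 10.4 ± 1.95 in KO liver (-0.26, adjusted p = 0.292, limma). Of 20 tested genes listed as readers of H3K36 methylation or their relatives, 2 were called higher and 1 lower. Morf4l2, a relative of the trimethyl reader MRG15, went from 77.1 ± 6.58 to 48.0 ± 9.36 FPKM (-0.69 ± 0.15, adjusted p = 0.0299). The gene of MRG15 itself, Morf4l1, changed by -0.15 and was not called. Zcwpw1, a reader of dual histone marks known from meiosis, went from 1.03 to 2.55 FPKM (0.79, adjusted p = 0.0321), and Phf1, a Polycomb partner that reads the trimethyl mark, from 5.75 to 9.58 (0.63, adjusted p = 0.0435).

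Of 18 genes of RNA polymerase II elongation, 1 was called higher and 3 lower, with a median of -0.01. Cdc73, a subunit of the PAF1 complex, went from 3.35 ± 0.414 to 1.51 ± 0.191 FPKM (-0.79 ± 0.13, adjusted p = 0.0140, limma). Ccnt1, a cyclin of the elongation kinase P-TEFb, went from 3.42 ± 1.22 to 1.21 ± 0.292 (-0.97, adjusted p = 0.0278). Cdk12, a kinase of the polymerase tail, was lower (-0.58, adjusted p = 0.0406), and Hnrnpl, an RNA-binding protein reported to bind SETD2, was higher (0.55, adjusted p = 0.0419).

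Of 20 tested methyltransferases of other histone lysines, 3 were called higher and 1 lower (median -0.07). Suv420h1 went from 6.28 ± 0.626 to 3.31 ± 0.205 FPKM (-0.75 ± 0.12, adjusted p = 0.0145, limma) and Setd8 from 10.9 ± 1.69 to 19.9 ± 1.70 (0.82 ± 0.14, adjusted p = 0.0160), and both enzymes act on the same lysine of histone H4. Kmt2d, an enhancer methyltransferase, went from 2.30 ± 0.512 to 6.40 ± 2.34 (1.13, adjusted p = 0.0242), with some of its reads possibly in a second entry that joins its name to a neighbour's. Ehmt2, which dimethylates H3K9, went from 17.3 to 24.1 (0.46, adjusted p = 0.0390). Of 14 tested demethylases of other lysines, 0 were called higher and 3 lower (median -0.34): Kdm5c (11.6 ± 1.10 to 6.0 ± 0.831 FPKM, -0.85, adjusted p = 0.0143), Kdm6a (3.67 to 1.64, -0.82, adjusted p = 0.0145) and Phf8 (4.06 to 1.74, -0.84, adjusted p = 0.0454). Of the 14 calls in these lists, that of Setd8 held whichever library was left out. Those of Cdc73, Suv420h1, Kdm5c and Kdm6a were lost only without WT liver replicate 3 (adjusted p from 0.0543 to 0.0585), and the other 9 were lost without at least 3 of the 6 libraries.

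**Figure D5:**
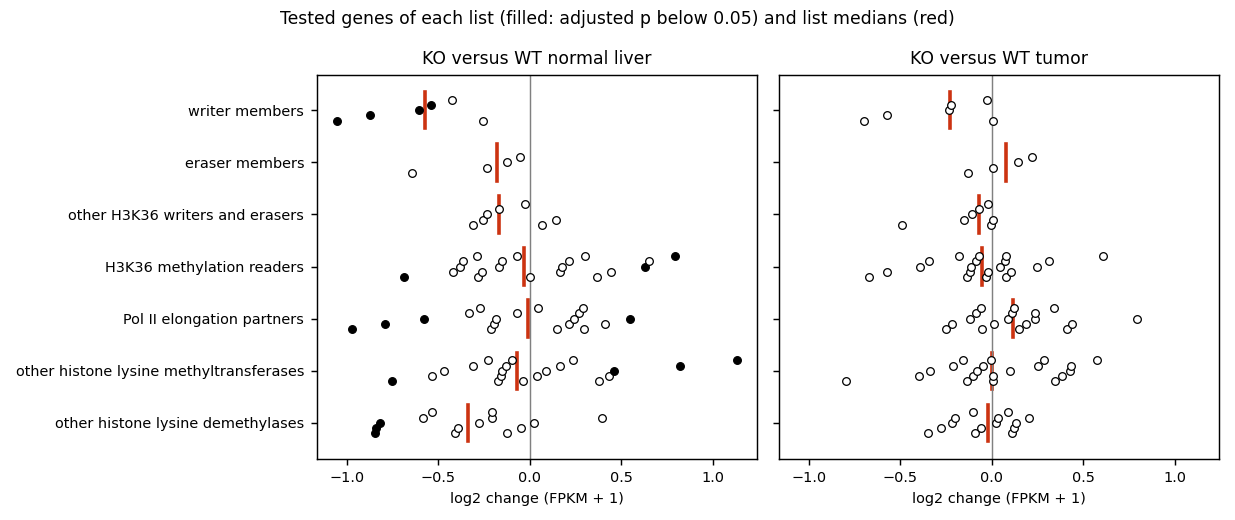
Log2 change of every tested gene in the writers, the erasers and 5 further lists, in normal liver (left) and in tumor (right). Filled circles passed the test and red bars are list medians: the writers' median is the lowest of all lists in normal liver, and no circle is filled in tumor.

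Between the tumor genotypes, 0 genes of any of these lists were called. Between WT tumor and WT liver, Kdm5c was lower (-0.89 ± 0.12, adjusted p = 0.00651, limma), as was Suv420h1 (-0.46, adjusted p = 0.0411). Kdm4b, an eraser of the same family as Kdm4a, was higher in WT tumor, at 4.60 ± 0.503 against 2.57 ± 0.304 FPKM (0.65 ± 0.13, adjusted p = 0.0208, limma), and so lay in the opposite direction to Kdm4a. Phf1 (0.81, adjusted p = 0.0105), Mum1 (0.86, adjusted p = 0.0214), Suv420h2 (0.91, adjusted p = 0.0106) and Setd8 (0.59, adjusted p = 0.0489) were higher there as well. When each of the 6 libraries was left out in turn, Kdm5c, Phf1 and Suv420h2 kept their calls in all 6 fits, Kdm4b (adjusted p from 0.0331 to 0.079) and Mum1 (0.0199 to 0.0648) in 3, Setd8 in 1 (0.0332 to 0.135) and Suv420h1 in 0 (0.0628 to 0.127). Between KO tumor and KO liver, Kmt2d was the single call in these lists, at 1.39 ± 0.967 against 6.40 ± 2.34 FPKM (-1.68 ± 0.37, adjusted p = 0.0299, limma). Its call held in 2 of the 6 fits that left out a library, with changes from -1.93 to -1.29 and adjusted p up to 0.106.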

How the data were processed

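Total RNA from 12 mouse liver samples was poly(A)-selected and sequenced with a non-directional kit, per the labels' protocols. For each library the authors deposited 1 table of FPKM, made on mm10 with TopHat2 2.1.1 and Cufflinks 2.2.1 per the submitters' processing notes. Options are not named, and the annotation is not given in the sources used here. No whole reads could be recovered (at most 1.27% of low values lay on 1 ratio), so depth and counting error are unknown.

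Entries with FPKM of 1 or more in at least 3 of 12 libraries (11671 of 24553) were tested as log2(FPKM + 1) with limma 3.58.1 in R 4.3.3, two-sided, with empirical Bayes moderation and a variance trend, on the 6 libraries of each comparison or all 12 for the interaction and the average, and with Benjamini-Hochberg adjustment over all tested entries. The code was tested on simulated data. Members, lists, tests and alternatives were chosen with earlier results of these data known. All 10 members are named, with list genes called in normal liver or the interaction (up to 5 a list, otherwise up to 2), up to 3 called list genes elsewhere and the 5 genes most like Setd2. Positions come from GENCODE vM21 (GRCm38, the build called mm10), where 95.8% of tested entries were placed, and promoters from RefSeq. No 2 libraries held identical values (highest correlation 0.986). Alternatives were other pseudocounts, filters, scalings and variance models, 1 fit of all libraries, a replicate block, removal of the length trend and leaving out each library.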

Additional observations from a re-analysis of the deposited data

Results flagged for a closer look

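None of the 10 genes differed in its knockout effect between tumor and normal liver past the threshold. In 2 of the 79 tested genes of the lists around them it did, by the interaction term of limma over 12 libraries. That is 2.53%, near the 2.08% called among all tested genes. Phf1, a Polycomb partner and reader of trimethyl H3K36, had an interaction of -1.02 ± 0.22 (adjusted p = 0.0449): its mean went from 5.75 FPKM in WT liver to 9.58 in KO liver, and from 10.8 in WT tumor to 8.01 in KO tumor. Suv420h2, a methyltransferase of histone H4, had -1.23 ± 0.23 (adjusted p = 0.0342), with means of 3.90, 5.68, 8.22 and 4.30 FPKM in the same order. When each of the 12 libraries was left out in turn, Phf1 kept its call in 3 fits and Suv420h2 in 5, with interactions from -1.17 to -0.88 and from -1.34 to -1.06.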

How the results depend on the processing

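Setd2 and Whsc1l1 kept their direction and their call in KO versus WT normal liver under all alternatives run for them except the replicate block, with changes of Setd2 from -1.40 (pseudocount 0.1) to -0.51 (pseudocount 5). With the replicate number as a block, the change of Setd2 was still -1.05 but its adjusted p by limma was 0.0566, that of Whsc1l1 was 0.0579, and 0 of the 10 genes were called, with 153 calls among all genes against 2113. Deviations of same-numbered libraries correlated from -0.28 to 0.35, and in normal liver no sample correlated best with its own number. Between the tumors replicate 1 did (0.35). With 3 libraries per group, these correlations cannot decide whether the numbers pair the samples. In the same comparison, where 4 genes were called, 2 were called without a filter on low FPKM, 1 with a filter at a mean of 5 FPKM (which kept 3 of the 10 genes), 2 with the length trend removed, and 2 to 3 when a library was left out. With pseudocount 5 and with no variance trend 5 were called, Whsc1 being added (adjusted p = 0.0464 and 0.0456, limma), and the single fit called 3. In KO versus WT tumor, where 0 were called, the single fit of 12 libraries called 2 (Setd2, -0.57), with 1017 calls among all genes against 9. In WT tumor versus liver the 1 call became 0 without the filter, after rescaling to a common sum (TPM), with quantile normalization and in the single fit, and was 0 to 1 on leaving out a library. In KO tumor versus liver, 0 calls became 1 with TPM and 2 in the single fit, while calls among all genes were 2072 and 3340 against 1664. For the averaged effect, 2 calls became 1 with the filter at 5, 3 with quantile normalization and with library weights, and were 2 to 5 on leaving out a library. Summing repeated rows changed nothing, since no name of the 10 repeats. TPM moved the median of all genes to 0.226 in WT tumor versus liver (from -0.041), 0.359 in KO tumor versus liver (from -0.019), 0.125 between tumors and 0.137 in the interaction.

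Directions that turned belonged to changes that passed no test. Under TPM they were 0.076 for Nsd1 between tumors, 0.14 for Setd2, 0.069 for Nsd1, 0.19 for Whsc1 and 0.16 for Setd5 in WT tumor versus liver, all below the shifted median of all genes, and 0.25 for Kdm4c in KO tumor versus liver. Median-of-ratios scaling gave -0.017 for Setd5 and -0.0095 for Kdm4c between tumors. Quantile normalization gave -0.052 and -0.080 for these, and -0.13 for Nsd1, -0.10 for Whsc1 and -0.091 for Ash1l in KO tumor versus liver. Library weights gave -0.011 for Kdm4c between tumors and -0.036 for Whsc1l1 in the interaction. Without the length trend the values were 0.067 for Kdm2b in normal liver, -0.0017 for Setd5 and -0.018 for Kdm4c between tumors, 0.026 for Whsc1 in WT tumor versus liver, -0.057 for Nsd1, -0.050 for Ash1l and -0.0093 for Kdm4a in KO tumor versus liver, and -0.028 for Whsc1l1 and -0.10 for Kdm2a in the interaction. Leaving out a library gave ranges that cross 0. In normal liver this was -0.15 to 0.069 for Kdm2b. Between tumors it was -0.090 to 0.023 for Nsd1, -0.13 to 0.12 for Setd5, -0.32 to 0.019 for Kdm2a, -0.020 to 0.39 for Kdm4a and -0.089 to 0.072 for Kdm4c. In KO tumor versus liver it was -0.0013 to 0.078 for Nsd1, -0.14 to 0.17 for Ash1l, -0.19 to 0.30 for Kdm4a and -0.16 to 0.0042 for Kdm4c, and in the interaction -0.00053 to 0.38 for Whsc1l1 and -0.088 to 0.25 for Kdm2a. The causes were not tested. The unknown depth limits what can be said of Kdm2b and Kdm4c, which lay near 1 to 2 FPKM.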
